A study of Mus musculus with 12 samples.

Results

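The nuclear-encoded subunit genes of the mitochondrial respiratory chain and ATP synthase were followed in macrophages grown from mouse bone marrow. The mice had eaten either a high-fat diet (HFD) or, as controls, a normal one (ND). Members were taken by gene symbol alone: the *Nduf*, *Sdh*, *Uqcr*, *Cox4* to *Cox8* and *Atp5* rows of the table. The rule gave 87 of 13232 rows, of which 40 belong to complex I, 4 to complex II, 9 to complex III, 15 to complex IV and 19 to complex V. RefSeq lists 9 of the 87 as pseudogenes and 78 as coding genes. *Ndufa4* was counted with complex IV, where its protein is known to sit. The subunit genes *Ndufab1* and *Cyc1* fall outside the symbol rule, and are taken up below with the other genes of the pathway.

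All groups were wild-type C57B6/J mice. Whole marrow was grown with 20 ng/ml of the macrophage growth factor M-CSF, which was kept in the serum-free macrophage medium used from day 4. On day 7 the cultures spent 1 h at 1% oxygen. The 3 ND and 3 HFD hypoxia libraries were analysed; libraries kept at normal oxygen were not analysed here, so the values describe diet under low oxygen and not the response to oxygen. Age, sex, length of feeding and the number of mice are not given in the sources used here, so p-values measure the spread between these libraries, which may be technical. The cells are a bulk culture, in which fewer cells of a type and less RNA per cell cannot be told apart.

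The respiratory chain passes electrons from NADH (at complex I) and succinate (at complex II) through ubiquinone to complex III, then through cytochrome c to oxygen at complex IV. Complexes I, III and IV pump protons out of the mitochondrial matrix, and complex V, the ATP synthase, uses the returning protons to make ATP. A few core subunits are encoded by mitochondrial DNA (mtDNA) and all others by nuclear genes, so both sets are needed to build complexes I, III, IV and V. Complex II is wholly nuclear-encoded and is also an enzyme of the tricarboxylic acid (TCA) cycle. In macrophages, oxidative phosphorylation is known as a feature of alternative activation, while inflammatory activation shifts cells towards glycolysis.

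No subunit gene differed between the diets past the threshold. At an adjusted p under 0.05 there were 0 of 87 (limma on log2(signal + 1), Benjamini-Hochberg over all 13232 genes), in a comparison that called 0.0% of all genes, and the members' adjusted p ran from 0.362 to 1.00. The signal was read as an estimated count divided by a library factor. At an unadjusted p under 0.05 there were 2 of 87, *Ndufa12* (higher in HFD) and the pseudogene *Uqcrh-ps1* (lower in HFD), where 10.6% of all genes lay under it (5.4% higher and 5.18% lower in HFD). The HFD values lay wholly above the ND values for 3 members and wholly below for 4, against 7.44% and 7.07% of all genes. The count at an unadjusted p under 0.05 moved with single libraries. With ND replicate 3 left out it was 8 (17.5% of all genes), and with ND replicate 2 left out it was 1 (8.01%). Leaving out HFD replicate 1 gave 5 (12.6%), and leaving out HFD replicate 3 gave 4 (9.17%). At an adjusted p under 0.05 the members called stayed at 0 in these fits, where ND replicate 3 left out called 233 of all genes (1.76%), HFD replicate 1 left out 2 (0.0151%) and ND replicate 2 left out 1 (0.00756%). With limma's array weights, which weigh libraries by their fit, 18 members had an unadjusted p under 0.05 (27.6% of all genes). Those weights called 3 members at an adjusted p under 0.05, *Ndufa12* (log2 fold change 0.49, adjusted p = 0.0325), *Cox7b* (0.30, adjusted p = 0.0436) and *Ndufa7* (0.26, adjusted p = 0.0470), all higher in HFD, among 1133 genes called (8.56%). They gave HFD replicate 2 a weight of 3.09 and ND replicate 3 a weight of 0.441.

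The intervals were narrow for most subunits. The 95% interval of the log2 fold change lay within 0.5 of 0 for 81 of 87 members (93.1%), and for 73.6% of all genes. Low genes have wider intervals. Among genes with a mean signal of at least 100 the share was 86.7%, and 4 of the members had a mean under 100. The median absolute log2 fold change was 0.064 for the members and 0.092 for all genes. Only *Uqcrh-ps1* differed by more than 0.5, as did 465 of all genes (3.51%). By complex, the median log2 fold change of HFD against ND was 0.020 for complex I, 0.029 for complex II, -0.015 for complex III, 0.0064 for complex IV and 0.018 for complex V, against -0.0034 for all genes. Each is smaller than the SD of the complex's median between libraries of 1 diet, which was 0.062 to 0.087.

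**Figure D1:**
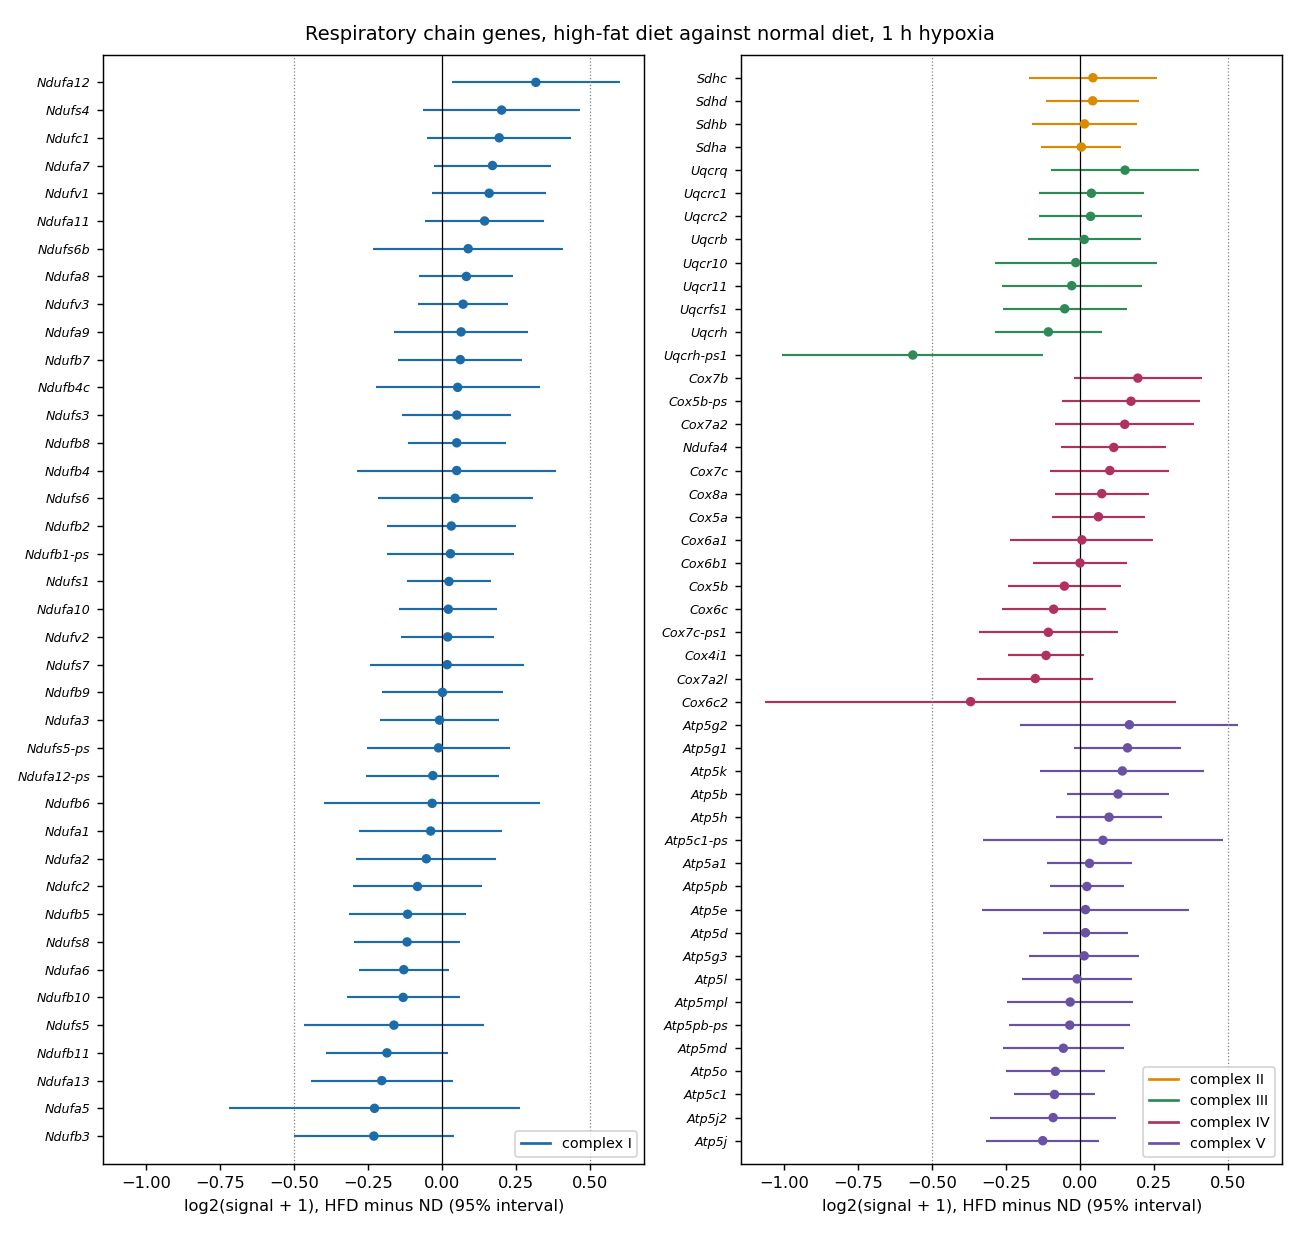
Difference between HFD and ND in log2(signal + 1) for 86 of the 87 genes, in complex I (left) and complexes II to V (right). Points are limma estimates from 3 libraries per diet, lines are 95% intervals, and dotted lines mark 0.5 on either side of 0. The intervals of 80 genes lie inside the dotted lines, and those of *Ndufa12* and *Uqcrh-ps1* do not touch 0.

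The libraries held 19046327 (ND replicate 3) to 24491486 (HFD replicate 3) estimated reads, and every HFD library was deeper than every ND library. At the members' mean signals, 34.7 to 7945, counting error alone was 17.0% to 1.12% of the value. All 8 macrophage markers were analysed, with a summed signal of 345313 to 395574 in ND and 342872 to 402478 in HFD. Of 10 neutrophil markers 7 were analysed, with sums of 1776 to 2592 in ND and 2367 to 3750 in HFD. The single dendritic marker analysed, *Itgax*, had 1139 to 2131 in ND and 2072 to 3071 in HFD. The 4 proliferation markers had sums of 8380 to 9285 in ND and 7099 to 10168 in HFD. Stromal markers (4 of 6 analysed) had sums of 201 to 636 in ND and 61.7 to 417 in HFD, and *Cd4*, the T cell marker analysed, 202 to 356 in ND and 98.1 to 230.0 in HFD. B cell, erythroid and adipocyte markers were not analysed here. The part of other cell types in the subunit values was not tested.

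Complex I takes electrons from NADH through 7 nuclear-encoded core subunits, which hold the flavin and the iron-sulfur clusters, and a large set of accessory subunits that surround them. The median log2 fold change was 0.019 for the 7 core genes and 0.025 for the 30 accessory genes, with 0 called in either. The core gene with the smallest p was *Ndufv1* (NADH-binding flavoprotein), at 699, 653 and 738 in ND and 776, 851 and 711 in HFD. Its log2 fold change was 0.16 (SE 0.086, adjusted p = 0.568), and 0.094 without HFD replicate 2. *Ndufs1*, which carries several of the iron-sulfur clusters, was at 1384, 1286 and 1418 in ND and 1392, 1352 and 1408 in HFD, and its log2 fold change of 0.023 had an interval of -0.12 to 0.17. For both core genes the ranges of the diets overlapped.

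Among the accessory genes, *Ndufa12* had the smallest p. It had 245, 257 and 277 in ND and 276, 386 and 316 in HFD. All but 1 of the HFD values lay above the ND range, and HFD replicate 1 fell within it. The log2 fold change was 0.32 (SE 0.13, adjusted p = 0.421), and 0.19 without HFD replicate 2. *Ndufa12* lies at chr10:94198720-94221443 of mm10 on the plus strand, and its protein sits close to the NADH-oxidizing arm. A processed pseudogene in the same table, *Ndufa12-ps* at chr5:130188395-130188796, matches it over 402 bases with 2 differences. It had 415, 408 and 406 in ND and 404, 453 and 352 in HFD, with a log2 fold change of -0.031 (SE 0.10, adjusted p = 0.939) whose sign turned without HFD replicate 3 (0.063). Reads of 75 bases were used, so the 75 coding bases 61 to 135 are shown for both rows, with the only base that differs between them in capitals:
Ndufa12: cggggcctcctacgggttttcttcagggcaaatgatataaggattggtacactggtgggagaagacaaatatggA
Ndufa12-ps: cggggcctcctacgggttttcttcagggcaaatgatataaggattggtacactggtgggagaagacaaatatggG
The window comes from GENCODE M21 transcripts. The 74 bases before the capital letter are the same in both, and 69.5% of the pseudogene's 75-base windows are found unchanged in *Ndufa12*. With both rows added together the family had 659.6, 665 and 683 in ND and 679, 839.6 and 668 in HFD, a summed log2 fold change of 0.12 (SE 0.094, adjusted p = 0.708). HFD replicate 2 was then the only library apart from the other 5.

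The other complex I genes with the smallest p were accessory subunits too, and none passed the threshold. *Ndufb11*, a membrane-arm subunit encoded on the X chromosome, had 621, 675 and 635 in ND and 582, 620.3 and 501 in HFD. All HFD values lay below all ND values, though HFD replicate 2 missed ND replicate 1 by less than 1 unit of signal. The log2 fold change was -0.19 (SE 0.092, adjusted p = 0.528), and -0.099 without HFD replicate 3. With its copy *Gm6444* added, the sum was 679.5, 719.7 and 714 in ND and 675, 683 and 561 in HFD. The diets of the sum overlapped, with a log2 fold change of -0.14 (SE 0.089, adjusted p = 0.618). *Ndufa6*, of the LYR-motif protein family, had 757, 738 and 788 in ND and 716, 699.6 and 672 in HFD. The ranges of *Ndufa6* did not overlap, with a log2 fold change of -0.13 (SE 0.068, adjusted p = 0.552). *Ndufa7* had 689, 753 and 844 in ND and 891, 879.9 and 797 in HFD. HFD replicate 3 fell inside the ND range, and the log2 fold change was 0.17 (SE 0.089, adjusted p = 0.551), and 0.10 without ND replicate 1.

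*Ndufb3*, a small membrane-arm subunit, had 244, 327 and 269 in ND and 221, 243 and 247 in HFD. Its highest value was ND replicate 2, and the log2 fold change was -0.23 (SE 0.12, adjusted p = 0.552). This estimate was -0.11 without ND replicate 2. *Ndufa13*, also known as Grim-19, had 414, 355 and 359 in ND and 288, 337 and 355 in HFD, with ND replicate 1 highest and HFD replicate 1 lowest. Its log2 fold change was -0.20 (SE 0.11, adjusted p = 0.552), and -0.12 without HFD replicate 1 and -0.13 with ND replicate 1 left out. The exons of *Ndufa13* and *Ndufb11* are each overlapped on the other strand by another gene (*Tssk6* and *Rbm10*). The library kit keeps strand, but the strand setting of the counting is not given in the sources used here. For 2 more accessory genes the HFD values lay wholly above those of ND, *Ndufa8* (log2 fold change 0.082, or 0.054 without ND replicate 2) and *Ndufa11* (0.14). The widest interval of a coding member was that of *Ndufa5*, at 113, 139 and 111 in ND and 70.5, 124 and 123 in HFD. HFD replicate 1 was its lowest library, and the log2 fold change of -0.23 had an interval of -0.72 to 0.26. Its sign turned without HFD replicate 1 (0.039), so it has no direction.

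Of the rest of the complex I core, *Ndufv2*, the partner of *Ndufv1* in the NADH-oxidizing module, had 989.8, 1029 and 1112 in ND and 1024, 1096 and 1049.7 in HFD, with an interval of -0.14 to 0.18. *Ndufs8*, which carries iron-sulfur clusters on the way to ubiquinone, had 449, 447 and 413 in ND and 422, 389 and 395 in HFD. Its log2 fold change was -0.12, and HFD replicate 1 lay within the ND range. *Ndufs7*, which holds the last cluster before ubiquinone, had 458, 439 and 602 in ND and 488, 503 and 511 in HFD. Its interval of -0.24 to 0.28 was wider, and ND replicate 3 stood far above the other ND libraries. *Ndufs3* shares windows with the copy *Gm12251* and had an interval of -0.13 to 0.23.

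Among further accessory genes, *Ndufs4*, loss of which causes a Leigh syndrome-like disease in mice, had 307, 372 and 313 in ND and 355, 347 and 440.4 in HFD. HFD replicate 3 was its highest library, and the log2 fold change was 0.20 (SE 0.12, adjusted p = 0.599), and 0.093 without HFD replicate 3. *Ndufc1* had 254, 292 and 335 in ND and 329.9, 337 and 336 in HFD. Its 3 HFD values were nearly equal, ND replicate 3 lay beside them, and the log2 fold change was 0.19 (SE 0.11, adjusted p = 0.586). Single libraries shifted that, to 0.094 without ND replicate 1 and 0.29 with ND replicate 3 left out. *Ndufb8*, a subunit often used as a marker of assembled complex I, had 1227, 1193 and 1346 in ND and 1226, 1378 and 1294 in HFD, with an interval of -0.12 to 0.21. *Ndufb6* had 270.4, 264 and 389 in ND and 248, 319.9 and 326 in HFD. ND replicate 3 was its highest library and HFD replicate 1 its lowest, with an interval of -0.40 to 0.33. *Ndufa9* and *Ndufa10*, both accessory subunits, had estimates of 0.064 and 0.021. Both changed sign with a library left out, *Ndufa9* to -0.024 without HFD replicate 3 and *Ndufa10* to -0.024 without HFD replicate 2.

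Complex II, or succinate dehydrogenase, has 4 subunits, with log2 fold changes of 0.0045 to 0.044. *Sdha*, the flavoprotein that oxidizes succinate, had 3008, 2872 and 2796 in ND and 2789, 2914 and 3000.3 in HFD. The ranges nearly coincided, and the log2 fold change of 0.0045 had an interval of -0.13 to 0.14. *Sdhb*, the iron-sulfur subunit, had 1233, 1272 and 1444 in ND and 1329, 1408 and 1249.5 in HFD, with a log2 fold change of 0.015 and an interval of -0.16 to 0.19. The membrane anchors bind ubiquinone. *Sdhc* had 1839, 1949.8 and 2341 in ND and 2089.9, 2267 and 1939.7 in HFD, with an interval of -0.17 to 0.26. *Sdhd* had 1431, 1401 and 1613 in ND and 1537, 1538 and 1496 in HFD, with an interval of -0.11 to 0.20. Its estimate was 0.019 without ND replicate 1, 0.0040 without ND replicate 2 and 0.11 with ND replicate 3 left out. *Sdhb*, *Sdhc* and *Sdhd* were all highest in ND replicate 3, and *Sdha* was not. The sign of the estimate for *Sdha*, *Sdhb* and *Sdhc* turned when some single libraries were left out, and that of *Sdha* also under another scaling, so no direction is given for these 3.

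Complex III (cytochrome bc1) passes electrons from ubiquinol to cytochrome c. Of its 8 coding members, 4 had positive and 4 negative estimates. *Uqcrq*, a small subunit that contacts cytochrome b, had 549, 618 and 723 in ND and 659.8, 778 and 656 in HFD. The ranges overlapped, and the log2 fold change was 0.15 (SE 0.11, adjusted p = 0.676). Single libraries moved it, to 0.072 without HFD replicate 2, 0.058 without ND replicate 1 and 0.26 with ND replicate 3 left out. *Uqcrh*, the hinge protein at the cytochrome c1 side, had 789.6, 812 and 789.6 in ND and 821, 723 and 683 in HFD. HFD replicate 1 was its highest library and HFD replicate 3 its lowest, with a log2 fold change of -0.11 (SE 0.081, adjusted p = 0.690). The estimate was -0.18 without HFD replicate 1 and -0.049 with HFD replicate 3 left out. The core proteins *Uqcrc1* and *Uqcrc2* had log2 fold changes of 0.038 and 0.036, and the Rieske iron-sulfur protein *Uqcrfs1* -0.052. Each changed sign with a library left out. *Uqcrc1* was -0.034 without ND replicate 2, *Uqcrc2* -0.014 without HFD replicate 3 and *Uqcrfs1* 0.021 without ND replicate 3.

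Of the small subunits of complex III, 2 were highest in ND replicate 3. *Uqcr10* had 438, 467 and 616 in ND and 523, 495 and 473 in HFD, with ND replicate 3 highest and an interval of -0.29 to 0.26. *Uqcr11* had 566, 692 and 716 in ND and 594, 707 and 629.5 in HFD, with ND replicate 1 lowest and ND replicate 3 highest. *Uqcrb*, whose protein binds near the ubiquinone site, had 613, 741 and 645 in ND and 645, 677 and 690.0 in HFD. ND replicate 2 was its highest library, and 3 copy rows share windows with it.

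The largest difference of any member was on a pseudogene of this complex. *Uqcrh-ps1* (chr15:99898289-99898556, minus strand) had 74.5, 103 and 67.7 in ND and 49.2, 57.6 and 55.5 in HFD. Every HFD value lay below every ND value, and ND replicate 2 was well above the other 5 libraries. The log2 fold change was -0.57 (SE 0.20, adjusted p = 0.362), with an interval of -1.01 to -0.12. This copy has drifted further from its parent than that of *Ndufa12*. It has 7 differences over its best-matching run of 150 bases (95.3% identity), and the 75 of these bases with the most differences are shown. Over the coding bases 132 to 206 of *Uqcrh* it differs at 6 of 75, shown in capitals, and 7.22% of its 75-base windows are found unchanged in the parent:
Uqcrh: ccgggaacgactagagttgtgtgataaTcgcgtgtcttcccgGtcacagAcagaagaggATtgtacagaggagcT
Uqcrh-ps1: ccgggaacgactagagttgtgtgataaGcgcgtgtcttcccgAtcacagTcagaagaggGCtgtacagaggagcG
Added together, *Uqcrh* and its copy had 864, 915 and 857 in ND and 870.2, 781 and 738 in HFD, a summed log2 fold change of -0.14 (SE 0.079, adjusted p = 0.569). The copy held a mean signal of 67.9, against 769.7 on the gene itself, so the sum followed the gene. HFD replicate 1 was within the ND range of the sum, and HFD replicates 2 and 3 were below it.

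Complex IV (cytochrome c oxidase) reduces oxygen to water. Its catalytic core is mtDNA-encoded, and its nuclear-encoded subunits include isoforms known to differ by tissue or oxygen supply. *Cox7b* had 897, 984 and 1105 in ND and 1014, 1202 and 1202 in HFD. HFD replicates 2 and 3 were above every ND library and HFD replicate 1 was not, and the log2 fold change was 0.20 (SE 0.097, adjusted p = 0.532), and 0.12 without ND replicate 1. *Cox4i1*, the general isoform of the regulatory subunit 4, had 3587, 3428 and 3639.5 in ND and 3262, 3363 and 3214 in HFD. All HFD values lay below all ND values, with a log2 fold change of -0.11 (SE 0.057, adjusted p = 0.534). At a mean signal of 3416 counting error was 1.71%. An antisense exon of *Emc8* overlaps *Cox4i1*. The second isoform, *Cox4i2*, which is known to be oxygen-linked, was not analysed here.

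*Cox7a2l* has been described as a factor that joins complexes III and IV into supercomplexes, a role not tested in these C57B6/J cells. It had 3263, 3011 and 3045 in ND and 3139, 2828 and 2461 in HFD. HFD replicate 3 was its lowest library, and the log2 fold change was -0.15 (SE 0.088, adjusted p = 0.597). It was -0.059 without HFD replicate 3 and -0.23 without HFD replicate 1. *Cox7a2*, the general isoform of subunit 7a, had 741, 761 and 763 in ND and 716, 840.3 and 978 in HFD. It was spread more widely in HFD, whose lowest and highest libraries lay on either side of the ND range, with a log2 fold change of 0.15 (SE 0.10, adjusted p = 0.659). It was 0.040 without HFD replicate 3 and 0.26 without HFD replicate 1. *Ndufa4* had 720.0, 749 and 848 in ND and 799.7, 852 and 851 in HFD, with a log2 fold change of 0.11 (SE 0.080, adjusted p = 0.660). Single libraries moved it, to 0.065 without ND replicate 1 and 0.18 with ND replicate 3 left out. HFD replicates 2 and 3 exceeded every ND library, and HFD replicate 1 did not.

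Of the other nuclear subunits of complex IV, *Cox5a* had 1163, 1170.5 and 1243 in ND and 1185, 1218 and 1334 in HFD, with a log2 fold change of 0.062 and an interval of -0.093 to 0.22. It was 0.012 without HFD replicate 3 and 0.098 without HFD replicate 1. *Cox5b* had 791, 855 and 967 in ND and 806, 823 and 883 in HFD, with ND replicate 3 highest. *Cox6c* had 983, 1112 and 989 in ND and 916, 944 and 1038 in HFD, and its log2 fold change was -0.089 (SE 0.079, adjusted p = 0.733). Leaving out single libraries gave -0.052 without HFD replicate 1, -0.14 without HFD replicate 3 and -0.031 with ND replicate 2 left out. Its pseudogene *Cox6c2* had 37.9, 38.4 and 38.6 in ND and 18.1, 41.0 and 34.1 in HFD. HFD replicate 1 was the only library far from the other 5, and the interval of -1.06 to 0.32 was the widest of all members. The estimate of -0.37 came to -0.033 without HFD replicate 1 and -0.60 with HFD replicate 2 left out. *Cox7c* had 449.7, 532 and 498 in ND and 556, 539.7 and 490.2 in HFD, with a log2 fold change of 0.10 that became -0.041 once its copies were added, and its transcribed pseudogene *Cox7c-ps1* stood at -0.11. Without ND replicate 1 *Cox7c* gave 0.036, and without ND replicate 3 the pseudogene gave 0.019.

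The remaining general isoforms had intervals that included 0. *Cox8a* had 1391, 1453 and 1393 in ND and 1367, 1519 and 1581 in HFD, with a log2 fold change of 0.073 and an interval of -0.085 to 0.23. The estimate was 0.13 without HFD replicate 1 and 0.029 with HFD replicate 3 left out. *Cox6a1* had 1163, 1196 and 1504 in ND and 1385, 1327 and 1153 in HFD, with an interval of -0.24 to 0.25. *Cox6b1* had 1985, 2176 and 2283 in ND and 2043, 2231 and 2164 in HFD, with an interval of -0.16 to 0.16. The sign of *Cox6a1* and *Cox6b1* turned with the scaling, so neither has a direction. Their muscle or testis counterparts *Cox6a2*, *Cox6b2*, *Cox7a1* and *Cox8b*, and the hypoxia-linked *Ndufa4l2*, were not analysed here. The pseudogene *Cox5b-ps* had 224, 270.0 and 255 in ND and 285, 296 and 263 in HFD, and its log2 fold change was 0.17 (SE 0.10, adjusted p = 0.610), and 0.097 without ND replicate 1. Its parent *Cox5b* stood at -0.053, or 0.025 without ND replicate 3.

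Complex V joins a catalytic F1 head to a membrane Fo motor. The 5 F1 genes had a median log2 fold change of 0.018 and the 12 other coding genes of 0.0022. *Atp5b*, the catalytic beta subunit, had 7418, 7044 and 8330.1 in ND and 7798, 8481 and 8599 in HFD. HFD replicates 2 and 3 were above every ND library, ND replicate 3 was above HFD replicate 1, and the log2 fold change was 0.13 (SE 0.077, adjusted p = 0.607). It came to 0.076 without ND replicate 2 and 0.20 with ND replicate 3 left out, and to 0.078 after quantile normalization. The alpha subunit *Atp5a1*, with which it forms the ring of the head, had 8139, 7299.8 and 8119 in ND and 7932, 8138 and 7989 in HFD. Its estimate was 0.032, with an interval of -0.11 to 0.18. The sign turned after quantile normalization (-0.020) and without ND replicate 2 (-0.020). *Atp5c1*, the rotating gamma subunit, had 1749, 1708 and 1835 in ND and 1615, 1654 and 1715 in HFD. Only HFD replicate 3 reached the ND range, by a few units, and the log2 fold change was -0.086 (SE 0.061, adjusted p = 0.662), and -0.057 without ND replicate 3.

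In the membrane part, *Atp5j* (coupling factor 6) had 569, 649.9 and 564 in ND and 512, 573 and 547 in HFD. ND replicate 2 was its highest library, and the log2 fold change was -0.13 (SE 0.085, adjusted p = 0.653). It came to -0.083 without HFD replicate 1 and -0.060 with ND replicate 2 left out. *Atp5h* (subunit d of the stalk) had 749, 778 and 822 in ND and 841, 905 and 772 in HFD, with a log2 fold change of 0.098 (SE 0.079, adjusted p = 0.708) that became -0.035 once its copy was added. Single libraries moved it, to 0.042 without HFD replicate 2 and 0.16 with HFD replicate 3 left out. The rotor ring is made of subunit c, which 3 genes encode as 1 mature protein. *Atp5g1* had 307, 305 and 314 in ND and 338, 356 and 340.4 in HFD. The diets did not overlap, and the log2 fold change was 0.16 (SE 0.081, adjusted p = 0.537). With its copy *Gm10039* added, the sum was 638, 664 and 776 in ND and 715, 769 and 752 in HFD. The diets of the sum overlapped, with a log2 fold change of 0.11 (SE 0.087, adjusted p = 0.704). *Atp5g2* had 99.3, 136 and 139 in ND and 129.9, 160.5 and 129 in HFD, with overlapping diets and a log2 fold change of 0.17 (SE 0.16, adjusted p = 0.770). It depended on single libraries, at 0.063 without HFD replicate 2, 0.010 without ND replicate 1 and 0.25 with ND replicate 3 left out. *Atp5g3* had 1336, 1190.0 and 1376 in ND and 1193, 1396 and 1352 in HFD, and its estimate of 0.014 had an interval of -0.17 to 0.20. The sign of *Atp5g3* turned when some single libraries were left out.

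The smaller parts of the synthase had intervals that all included 0. *Atp5d*, the delta subunit at the foot of the rotor, had 1859, 1767 and 1971 in ND and 1909, 1931 and 1824 in HFD, with an interval of -0.13 to 0.16. *Atp5e*, the epsilon subunit beside it, had 561, 610.2 and 835 in ND and 654, 792 and 573 in HFD. ND replicate 3 and HFD replicate 2 were high in it, and the interval was -0.33 to 0.37. *Atp5o*, which joins the head to the stalk and confers oligomycin sensitivity, had 1018, 1053 and 1163 in ND and 961, 1034 and 1053 in HFD. ND replicate 3 was its highest and HFD replicate 1 its lowest library, with a log2 fold change of -0.083 (SE 0.074, adjusted p = 0.738). Its estimate came to -0.044 without HFD replicate 1 and -0.028 with ND replicate 3 left out. *Atp5pb*, subunit b of the stalk, had 2708, 2704 and 2722 in ND and 2691, 2857 and 2721 in HFD. It was among the steadiest members, with an interval of -0.10 to 0.15. *Atp5k*, subunit e, which helps synthase dimers form, had 189, 178 and 217 in ND and 243, 207 and 195 in HFD. HFD replicate 1 was its highest library, and the log2 fold change was 0.14 (SE 0.12, adjusted p = 0.728). Leaving out single libraries gave 0.053 without HFD replicate 1, 0.081 without ND replicate 2 and 0.22 with ND replicate 3 left out.

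**Figure D2:**
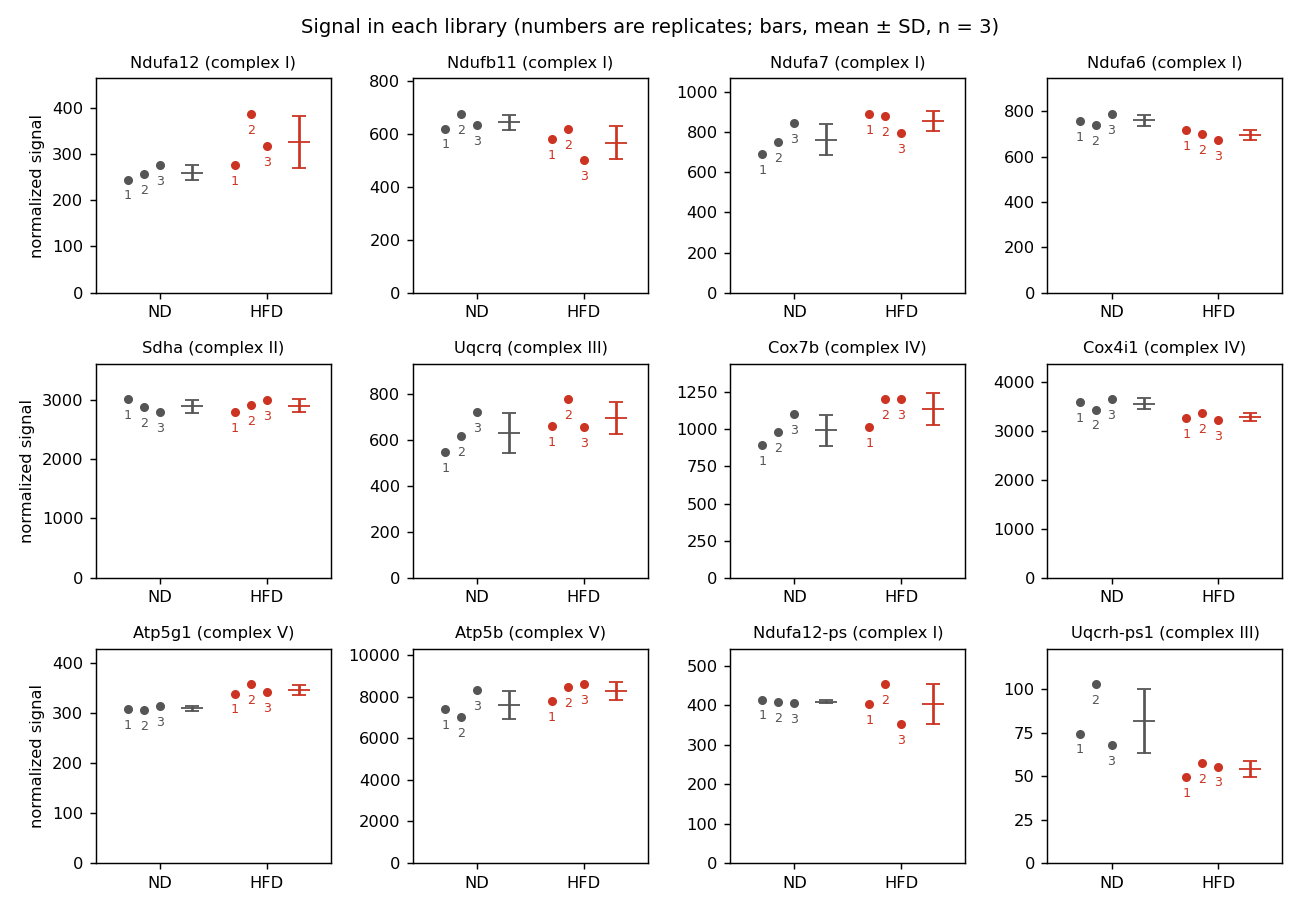
Normalized signal of 12 members in each library, with the replicate number under each point and the mean ± SD (n = 3) beside it; each vertical axis starts at 0. The diets do not overlap for *Ndufb11*, *Ndufa6*, *Cox4i1*, *Uqcrh-ps1* (all lower in HFD) and *Atp5g1* (higher in HFD), and they overlap for the other 7. With their copies added, *Ndufb11* and *Atp5g1* overlap too (not shown).

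The level of the whole chain varied between libraries of the same diet. For each gene the mean log2 value over the 6 libraries was taken off, and the median over members was then read in each library. Over all 87 it was -0.071, -0.039 and 0.078 for ND (replicates 1, 2 and 3). For HFD it was -0.027, 0.063 and -0.00042 in the same order. ND replicate 3 was the highest library for 37 of the 87 genes and the lowest for 0. ND replicate 1 was the lowest for 33, and HFD replicate 2 was the highest for 21. Each of the 5 complexes had its median below 0 in ND replicate 1 and above 0 in ND replicate 3. ND replicate 3 is also the shallowest library, at 19046327 estimated reads. Genes of short transcripts showed some of the same order: over all 1165 genes with transcripts under 800 bases the medians were -0.037 in ND replicate 1 and 0.059 in ND replicate 3, and over the 38 coding members of that length -0.10 and 0.090. The 23 coding members of 800 to 1500 bases had -0.0010 and 0.075, where all genes of that length had -0.028 and 0.047. The 17 coding members over 1500 bases had -0.073 and 0.047, where all genes of that length had 0.0089 and -0.0071. The part of depth and length in the order of the libraries was not tested.

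The number of members on either side of 0 changed with single libraries. With all 6 libraries 51 members had positive and 36 negative estimates. Leaving out ND replicate 3 gave 61 and 26. Leaving out ND replicate 1 gave 38 and 49, and leaving out HFD replicate 2 gave 39 and 48. No direction is therefore given for the chain as a whole. The medians of the complexes were less than 0.10 from 0 under every alternative run.

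The 13 subunits encoded by mtDNA were ordered differently and spread more widely. Their median centred log2 signal was 0.029, 0.35 and -0.21 for ND (replicates 1, 2 and 3). For HFD it was -0.32, -0.090 and 0.28. This is a range of 0.67, against 0.15 for the 74 coding nuclear members of complexes I, III, IV and V. ND replicate 3, the highest library for the nuclear set, was among the lowest for the mtDNA set. ND replicate 2 was the highest library for 9 of the 13 genes and HFD replicate 1 the lowest for 9. The median mtDNA value less the nuclear one ran from -0.29 (ND replicate 3) to 0.40 (ND replicate 2) within ND alone, and from -0.28 to 0.27 within HFD. In complex V, with 2 mtDNA genes, this difference was 0.24, 0.57 and -0.27 in ND and -0.48, -0.36 and 0.29 in HFD. The diets overlapped there too, with ND replicate 3 and HFD replicate 3 apart from the others of their diet.

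Between diets, 0 of the 13 mtDNA genes were called, and their median log2 fold change was -0.14. At an unadjusted p under 0.05, 2 were lower in HFD, against 5.18% of all genes. *mt-Nd6*, the only one of them encoded on the light strand of mtDNA, had 3199, 3539.7 and 3605 in ND and 2827, 3091 and 2839.6 in HFD. These ranges did not overlap, and the log2 fold change was -0.24 (SE 0.069, adjusted p = 0.295), and -0.15 with array weights. *mt-Atp8*, an Fo subunit, had 1716, 2200.1 and 1313 in ND and 901, 1040.3 and 1714 in HFD. Its diets overlapped, and the log2 fold change was -0.54 (SE 0.23, adjusted p = 0.454). It was -0.35 without HFD replicate 1, -0.36 without ND replicate 2 and -0.82 without HFD replicate 3, and with array weights it passed the threshold at -0.71 (limma, adjusted p = 0.0278). The other mtDNA gene of complex V, *mt-Atp6*, had 10543, 13153 and 8312 in ND and 7772, 9065 and 12285 in HFD. Its log2 fold change was -0.14 (SE 0.18, adjusted p = 0.839), with an interval of -0.55 to 0.27, and it was not called with array weights. *mt-Co1*, the catalytic subunit of complex IV, had 169083, 199110.0 and 133490.0 in ND and 151003, 166642 and 192635 in HFD, and its interval was -0.32 to 0.39. The median SD within a diet on the log2 scale was 0.284 for the 13 mtDNA genes and 0.107 for the 78 coding nuclear members. *mt-Nd6* had the narrowest interval of the 13, at -0.39 to -0.085.

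**Figure D3:**
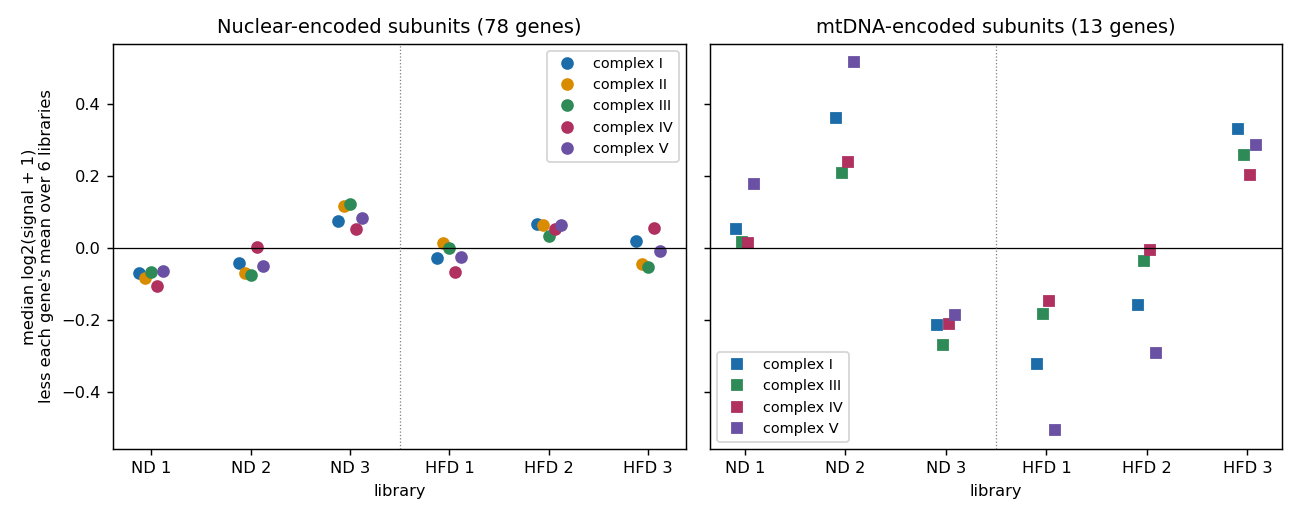
Median log2(signal + 1), less each gene's mean over the 6 libraries, in every library for nuclear-encoded coding members by complex (left, 78 genes) and for mtDNA-encoded subunits (right, 13 genes). The nuclear medians of complex I run from -0.070 to 0.077 and the mtDNA medians of complex I from -0.32 to 0.36, with ND replicate 3 high on the left and low on the right.

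The promoters of the coding members were read for letters of factors known to bind respiratory chain genes. RefSeq (GRCm38.p6) windows from 250 bases before to 50 after the start were matched for 64 members and for 9021 of all genes. Both strands were searched, and none of the motifs contains another. The motif of nuclear respiratory factor 1 (NRF1), GCGCA and GCGC with any 1 base between them, was in 17 of the 64 windows (26.6%) and in 12.4% of all genes' windows. The estrogen-related receptor (ERR) motif AAGGTCA was in 8 (12.5%, against 3.84%), and the YY1 motif AAGATGG in 11 (17.2%, against 8.85%). The ETS motif CCGGAAG, which GABP (NRF2) can bind, was in 17 (26.6%, against 21.8%). At least 1 of these 4 motifs was in 40 (62.5%, against 39.6%). The GC box GGGCGG was in 26 (40.6%), and in 68.5% of all genes' windows. A match is a description of these letters only.

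The 250 bases before the start are shown for 2 members of the table whose windows hold motifs of 2 of these factors, with the motifs in capitals, read along the gene's strand. That of *Ndufs5* (chr4:123718187-123718436, minus strand) holds an ERR motif in reverse complement starting 228 bases before the start and an NRF1 motif at 98. That of *Atp5l*, which encodes subunit g of the synthase (chr9:44920743-44920992, minus strand), holds an ETS motif at 212 and an ERR motif at 13, both in reverse complement:
Ndufs5: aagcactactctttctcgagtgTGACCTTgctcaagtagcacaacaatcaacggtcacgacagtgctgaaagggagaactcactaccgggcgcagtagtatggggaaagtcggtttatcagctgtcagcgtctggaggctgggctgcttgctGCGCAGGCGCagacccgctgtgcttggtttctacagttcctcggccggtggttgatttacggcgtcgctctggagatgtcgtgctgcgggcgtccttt
Atp5l: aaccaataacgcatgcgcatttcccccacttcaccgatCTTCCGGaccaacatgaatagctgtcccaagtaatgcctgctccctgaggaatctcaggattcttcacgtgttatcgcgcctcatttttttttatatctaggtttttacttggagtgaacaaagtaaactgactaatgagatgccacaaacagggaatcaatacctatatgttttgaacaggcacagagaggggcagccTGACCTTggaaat
*Ndufs5*, a small accessory subunit of complex I, had 213, 261 and 287 in ND and 195, 241 and 241 in HFD. Its diets overlapped, and the log2 fold change was -0.16 (SE 0.14, adjusted p = 0.718). Its estimate came to -0.060 without HFD replicate 1, -0.28 without ND replicate 1 and -0.069 with ND replicate 3 left out. *Atp5l* had 755, 774 and 887 in ND and 763, 847 and 786 in HFD, and the log2 fold change was -0.0098 (SE 0.083, adjusted p = 0.979). Both were highest in ND replicate 3, as many members were.

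Respiratory chain genes are short and highly transcribed, and many have processed pseudogenes, copies made from their RNA. Here 26 of the 78 coding members shared at least one 75-base window, the read length, with another gene, and 52 shared none. Members were joined with 25 copy rows of the table into 21 families, of which 9 copy rows match the symbol rule themselves. The copies together held more signal than the parent gene in 8 of the 21. In the most extreme, *Atp5g2* had a mean signal of 132, and the processed pseudogene *Gm10175* (chr7:23946646-23947290) had 1853, 1894 and 1877 in ND and 1938, 1952 and 1910.0 in HFD. The 2 sequences are identical over all 645 bases of the copy, among them all 438 coding bases. The last 75 coding bases are shown once for both rows, since no base differs:
Atp5g2 and Gm10175: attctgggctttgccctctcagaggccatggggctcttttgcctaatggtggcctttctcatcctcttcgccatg
*Atp5g2* carried 5.09% to 7.60% of its family's signal in the 6 libraries. The family's sum was 1953, 2031 and 2017 in ND and 2068, 2112 and 2039 in HFD. It had a log2 fold change of 0.052 (SE 0.057, adjusted p = 0.795), where the gene alone gave 0.17 (SE 0.16).

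*Ndufb4*, another complex I accessory gene, was in the same position. Its mean signal was 146, and that of the intronless *Ndufb4c* was 508. RefSeq lists *Ndufb4c* as coding and GENCODE M21 as a processed pseudogene. *Ndufb4c* had 420.2, 521 and 557 in ND and 453, 578 and 519.9 in HFD, with a log2 fold change of 0.053 (SE 0.12, adjusted p = 0.912). Its sign turned without ND replicate 1 (-0.066) and without HFD replicate 2 (-0.031). The family's sum gave 0.081 (SE 0.11, adjusted p = 0.841). The other parents that held less signal than their copies were *Cox7c* (511 against 1449), *Atp5l* (802 against 1259), *Atp5h* (811 against 964), *Ndufa12* (293 against 406), *Ndufs5* (239.7 against 309.5) and *Atp5g1* (327 against 392).

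**Figure D4:**
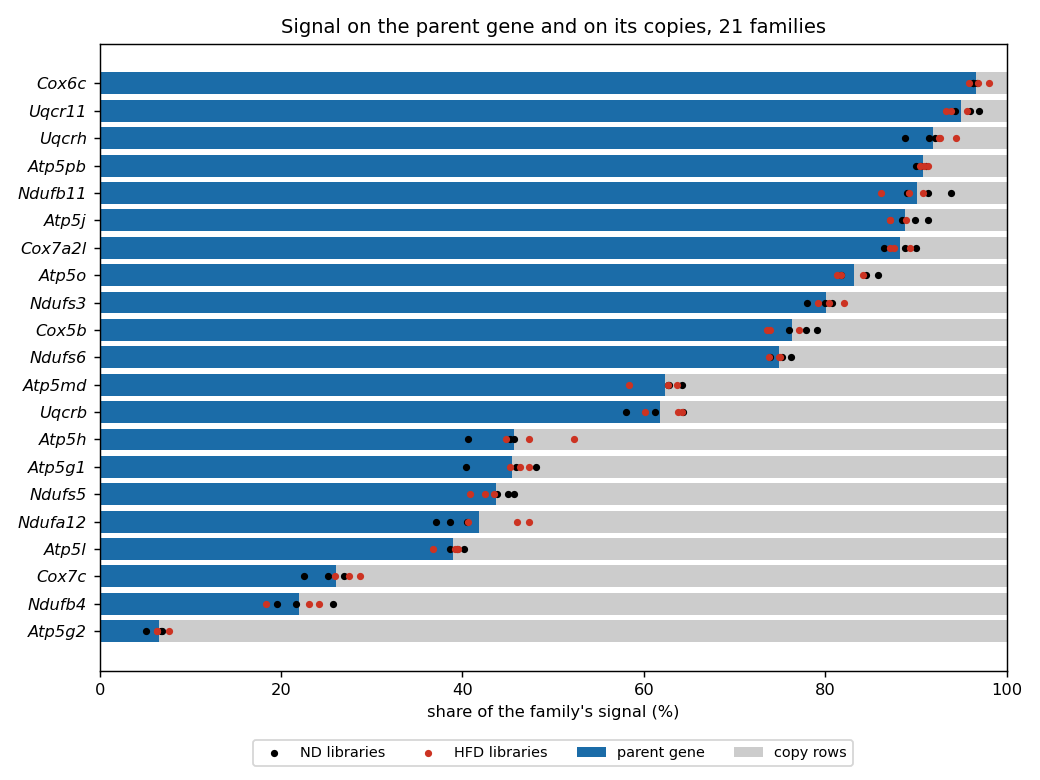
Share of each family's normalized signal on the parent gene (blue) and on its copy rows (grey), from the means over 6 libraries, with the parent's share in each ND library (black) and HFD library (red) as points. *Atp5g2* holds under 8% of its family's signal and *Cox6c* over 95%, and the points of both diets lie close together in most families.

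The parent's share of its family did not overlap between diets in 3 of 21 families, where the signal of 14.5% of all genes did not overlap. For *Ndufa12* the share was 37.1, 38.6 and 40.5 in ND and 40.6, 46.0 and 47.3 in HFD (percent). HFD replicate 1 exceeded ND replicate 3 by a small fraction of a percentage point. The share of *Uqcrh* was 91.4, 88.8 and 92.1 in ND and 94.3, 92.6 and 92.5 in HFD (percent), again higher in HFD. The share of *Ndufs5* was 43.8, 45.0 and 45.7 in ND and 40.8, 43.5 and 42.4 in HFD (percent), higher in ND. The exact two-sided permutation p was 0.1 for each, the smallest that 3 against 3 libraries can give, and 0.600 after adjustment over the 21 families. Any family without overlap has this p, so it adds nothing to the lack of overlap. Adding each parent to its copies brought the estimate closer to 0 in 15 of 21 families and changed its sign in 5 (*Cox7c*, *Atp5h*, *Uqcrb*, *Atp5l* and *Cox5b*). After this step 78 members remained, of which 0 were called (0.0% of 13207 rows, limma), 0 had an unadjusted p under 0.05 (10.6% of rows) and 47 had positive estimates. The sum was chosen after the data had been seen. For the 52 coding members with no shared window the median log2 fold change was 0.020, and 51 of the 52 intervals lay within 0.5 of 0.

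Many members had values that were not whole numbers of reads. The value of 1 read in a library was inferred as the step at which the largest share of values came out whole, and a value is called whole when it lies within 0.02 of a whole number of reads. Of the 52 coding members with no shared window, 22 (42.3%) had whole reads in all 6 libraries, against 36.8% of all genes. Of the 26 that share a window 1 did, and 22 had none in any library. None of the 9 pseudogene members had a whole value in any library. Of the unshared members 10 had none either, and in 7 of these the exon of another gene overlaps and in 3 none does. Other overlapped members, such as *Ndufa2* and *Ndufa3*, had whole reads in all 6 libraries. The 3 without overlap, *Cox7b*, *Cox6b1* and *Atp5b*, had mean signals of 1067, 2147 and 7945. The step was inferred from values up to 1000. *Ndufa12*, *Uqcrh-ps1* and *Atp5g1* had no whole value in any library. What made values fractional was not tested.

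**Figure D5:**
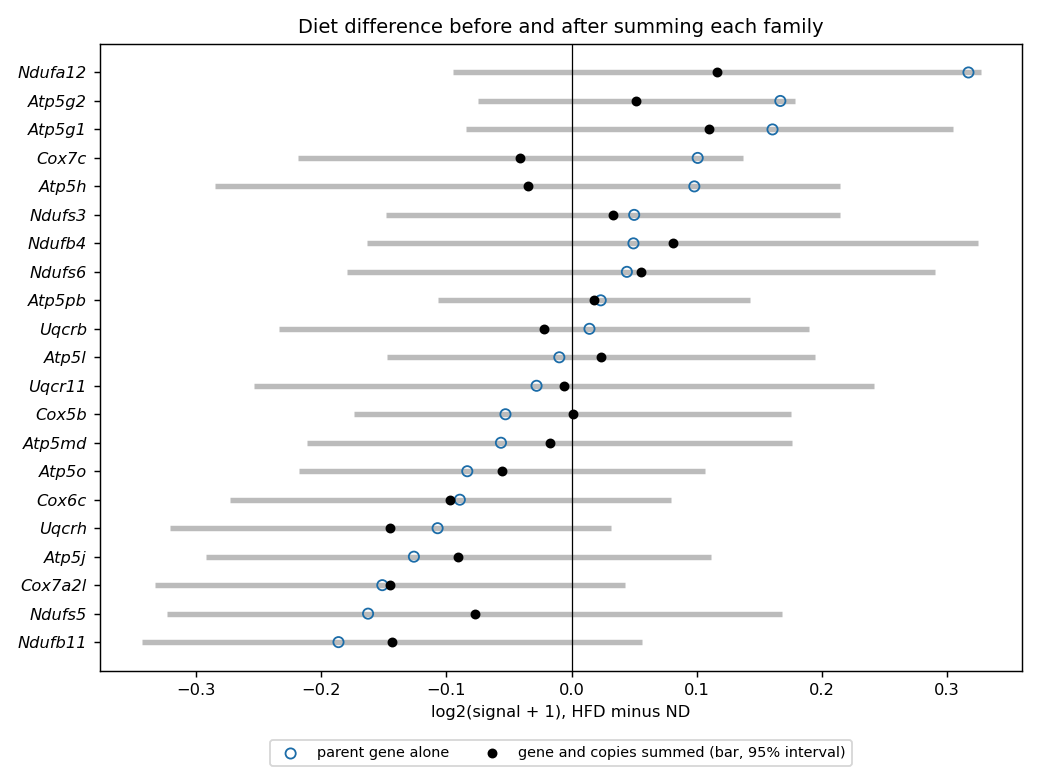
Log2 fold change of HFD against ND for 21 parent genes alone (open circles) and for the sum of each parent and its copies (black points, with 95% intervals in grey). The estimate for *Ndufa12* moves from 0.32 to 0.12, and every interval of a sum includes 0.

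Genes that build, feed or regulate the chain were read from lists by known role, and 0 of each were called. At an unadjusted p under 0.05, 10.6% of all genes were found (5.4% higher and 5.18% lower in HFD). *Ndufab1*, the acyl carrier protein that is also a complex I subunit, had 419, 423 and 472 in ND and 448, 453 and 507 in HFD, with a log2 fold change of 0.099 (SE 0.088, adjusted p = 0.736). It came to 0.042 without HFD replicate 3 and 0.15 with ND replicate 3 left out. Of 15 complex I assembly genes, 0 had an unadjusted p under 0.05, and the median log2 fold change was 0.042. The smallest p were those of *Dmac2* (-0.21 (SE 0.10, adjusted p = 0.509)) and *Ndufaf4* (0.18 (SE 0.11, adjusted p = 0.612)). Of 34 genes that assemble complexes II to V, 1 had an unadjusted p under 0.05 and was lower in HFD, with a median of 0.022 for the list. This was *Uqcc3*, a complex III assembly factor, at 235, 221 and 237 in ND and 216, 183 and 177 in HFD. The diets did not overlap, and the log2 fold change was -0.27 (SE 0.11, adjusted p = 0.431). *Cox20*, which assists the Cox2 subunit, had 103, 104 and 102 in ND and 79.7, 93.5 and 74.6 in HFD. It too had no overlap, with a log2 fold change of -0.32 (SE 0.14, adjusted p = 0.474).

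*Cyc1*, which encodes cytochrome c1 of complex III, had 589.7, 563 and 652 in ND and 601, 696 and 657 in HFD. HFD replicate 1 lay within the ND range, and the log2 fold change was 0.11 (SE 0.086, adjusted p = 0.690). Leaving out single libraries gave 0.065 without HFD replicate 2, 0.068 without ND replicate 2 and 0.17 with ND replicate 3 left out. In the cytochrome c and coenzyme Q list, which holds this gene, 1 of 15 genes had an unadjusted p under 0.05 (10.6% of all genes) and was higher in HFD, and the median was 0.054. This was *Coq10b*, a coenzyme Q-binding protein, at 235, 232 and 343 in ND and 338, 381 and 352 in HFD. ND replicate 3 lay among the HFD libraries and the other 2 ND libraries well below them, and the log2 fold change was 0.42 (SE 0.15, adjusted p = 0.361). It passed the threshold without ND replicate 3, at 0.61 (limma, adjusted p = 0.0217, where 1.76% of all genes passed), and with array weights, at 0.58 (adjusted p = 0.0138, where 8.56% did). *Coq3*, a methyltransferase of the same pathway, gave 0.20 (SE 0.13, adjusted p = 0.649), and 0.069 without ND replicate 1 and 0.31 with ND replicate 3 left out. Of 14 TCA cycle genes 1 had an unadjusted p under 0.05 and was lower in HFD, and the median was 0.018. This was fumarase, *Fh1*, at 1033, 972 and 910.5 in ND and 817, 821 and 815 in HFD. The HFD values were nearly equal and lay below all ND values, with a log2 fold change of -0.25 (SE 0.070, adjusted p = 0.286). With array weights it was called, at -0.28 (limma, adjusted p = 0.0180). *Fh1* acts on the fumarate that complex II makes, and the complex II genes themselves had intervals that included 0. *Mdh2*, the next enzyme, gave 0.17 (SE 0.092, adjusted p = 0.583), and 0.25 without HFD replicate 1 and 0.078 with HFD replicate 3 left out.

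Of 12 regulators of mitochondrial biogenesis 0 had an unadjusted p under 0.05 (10.6% of all genes), with a median of -0.021. The mtDNA polymerase *Polg* gave -0.088 (SE 0.076, adjusted p = 0.732) and the mtDNA packaging factor *Tfam* -0.11 (SE 0.094, adjusted p = 0.741). *Polg* came to -0.034 without ND replicate 1 and -0.13 with ND replicate 2 left out, and *Tfam* to -0.18 without ND replicate 2 and -0.027 with ND replicate 3 left out. In the list of genes that remodel respiration under hypoxia 10 of 11 had positive estimates, where 6470 of all 13232 did, and 0 had an unadjusted p under 0.05. Their median was 0.094. The list's median centred log2 signal was -0.15, -0.080 and 0.020 in ND and 0.016, 0.10 and 0.015 in HFD. ND replicate 3 lay above HFD replicates 1 and 3, and ND replicates 1 and 2 lay below all HFD libraries. *Pdk1*, the kinase that limits pyruvate entry into the TCA cycle, had 2328, 2268 and 3076 in ND and 2675, 2916 and 3165 in HFD. ND replicate 3 lay among the HFD values, and the log2 fold change was 0.20 (SE 0.11, adjusted p = 0.588). Leaving out ND replicate 3 gave 0.34, and leaving out ND replicate 2 gave 0.12. *Higd2a*, a supercomplex assembly factor, had 554, 605 and 589 in ND and 615, 634 and 638 in HFD. Its HFD values lay above all ND values, and the log2 fold change was 0.11 (SE 0.071, adjusted p = 0.633).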

How the data were processed

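Total RNA was made into stranded, ribosome-depleted libraries and sequenced as single reads of 75 bases, per the labels' protocols. The deposited signal was made with STAR and Partek on mm10, per the submitters' processing notes; the counter, annotation, versions and strand setting are not given in the sources used here. From the values, the signal was read as estimated counts divided by a library factor. In each library 57.1% to 58.4% of values from 5 to 1000 were whole reads (within 0.02), so whole reads were not recoverable and count models were not used. The NC columns were read as ND.

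The 3 libraries of each diet were compared gene by gene on log2(value + 1). The test was limma (version 3.58.1, R version 4.3.3), two-sided with a mean-variance trend, with Benjamini-Hochberg adjustment across the 13232 genes. Fold changes on this scale understate changes of low genes. A filter at a mean of 1 removed 0 genes. Intervals are at 95% from limma. A single member entered every count and is not reported on its own here. The labels name no molecular identifiers, so counting error covers counting only. Genes named were, per complex, those with the smallest unadjusted p (6, 4, 3, 5 and 5 for complexes I to V), the isoform families, *Ndufab1* and the 2 with the smallest p in each list; others were chosen after their values were seen. The members and lists were chosen with earlier results of these data known. Coordinates and shared windows come from GENCODE M21. A copy shares at least 5% of its windows with the parent. Alternatives changed the pseudocount, filter, scaling, trend, weights, block, libraries and, after the data had been seen, summed copies.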

Additional observations from a re-analysis of the deposited data

How the results depend on the processing

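The count of genes called, 0 in the main analysis, was 1133 with array weights and 31 with a replicate block, and 0 to 233 when 1 library was left out. The count of subunit genes called was 3 with array weights and 0 in each other alternative. The count at an unadjusted p under 0.05, 2 in the main analysis, was 18 with array weights (27.6% of all genes), 1 at a minimum mean of 100 (10.6% of 10794), 0 with copies summed (10.6%), and 1 to 8 when 1 library was left out. Whether replicate numbers pair the libraries cannot be settled from these values. Residual correlations of same-numbered libraries were -0.0086, -0.037 and -0.00069, and those of differently numbered libraries ran from -0.13 to 0.15. The replicate block called 31 genes and 0 members.

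No complex median moved beyond its spread in 89 alternatives (-0.056 to 0.098), though 13 changed sign. Of 656 values of the 44 genes named by the rule, 624 kept direction and side of the threshold, 7 passed it (*Ndufa12*, *Ndufa7*, *Cox7b*, *mt-Atp8*, *Fh1* and *Coq10b* with array weights, and *Coq10b* without ND replicate 3) and 25 changed sign. Estimates moved by over 1.5 times for 32 of the 44 with some library left out, for 20 with array weights and for 9 in other settings. Of the 57 other members shown and *Cyc1*, 0 were called in any alternative, and 36 of these 58 estimates changed sign in at least 1 (34 with a library left out). *Sdha* was -0.0020 after quantile normalization, -0.0079 at equal column totals and -0.019 with array weights. *Cox6a1* was -0.0060 at equal totals, *Cox6b1* -0.013 after quantile normalization and -0.012 at equal totals, and *Atp5h* -0.035 with its copy summed (among 5 families whose sign changed). With 1 library left out the reversed genes ranged as follows. *Sdha* -0.020 to 0.033, *Sdhb* -0.030 to 0.084, *Sdhc* -0.028 to 0.15, *Cox6a1* -0.062 to 0.12, *Cox6b1* -0.056 to 0.045 and *Atp5g3* -0.048 to 0.082. The cause was not tested. Depth limits the lowest members most, since counting error reaches 17.0% there. With *Atp5s* and *Atp5sl* (*Dmac2l* and *Dmac2* in the table) added, complex V was at 0.018.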
